A study of Mus musculus with 24 samples.

Results

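The genes described here are the nuclear genes for respiratory complex I, chosen by name: every row of the count table whose symbol begins with Ndufa, Ndufb, Ndufc, Ndufs, Ndufv or Ndufaf, with at least 10 counts in at least 4 libraries. The name matched 50 of 35727 rows, and 47 met the count rule, as did 15316 rows of the whole table. Of the 47, 36 encode subunits of the complex, 8 encode assembly factors (Ndufaf1 to Ndufaf8), and 3 share the name without encoding a subunit of complex I: Ndufa4, Ndufa4l2 and the processed pseudogene Ndufb4c. The 3 rows under the count rule, Ndufa11b, Ndufab1-ps and Ndufs6b, are processed pseudogenes with 10 counts in 0 libraries. All 47 members were tested.

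Inguinal white adipose tissue (iWAT), the fat depot under the skin of the groin, was profiled by bulk RNA-seq of poly-A RNA from male mice aged 18 to 22 weeks. The mice were WT or KO for Lpcat3, which encodes an enzyme that places polyunsaturated fatty acids on membrane phospholipids. All of them ate a diet with 60% of calories from fat, and none a low-fat diet. The fat was rich in saturated fatty acids (the SFA diet), in omega-6 fatty acids (n6) or in omega-3 fatty acids (n3). The 6 groups, WT and KO on each diet, held 4 libraries each and 24 in all. The design text calls the KO mice AdL3KO; neither the allele nor a Cre driver is named in the sources used here. The labels do not say that each library came from a separate animal, so p-values measure only the spread between these libraries.

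Complex I takes electrons from NADH, passes them along a chain of iron-sulphur clusters to ubiquinone, and pumps protons out of the mitochondrial matrix. It joins core subunits that carry the catalysis, some encoded in the nucleus and some in mitochondrial DNA, with accessory subunits that surround them. Assembly factors bind the intermediates while the complex is built and are absent from the finished enzyme. In fat tissue the complex feeds the respiration that supports lipid handling and, in thermogenic adipocytes, heat production.

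The libraries held 43.6 M to 62.1 M estimated counts each (M, mega; median 50.2 M). Levels are CPM (counts scaled to a common library total) with the library size corrected by trimmed mean of M values (TMM), a scaling that sets the bulk of genes level between libraries. On SFA, Lpcat3 had 97.8, 117.5, 129 and 122.8 CPM in WT and 80.99, 73.8, 76.2 and 70.8 in KO. On n6 it had 69.9, 69.3, 72.9 and 66.02 CPM in WT and 50.05, 47.7, 49.1 and 49.2 in KO. On n3 it had 113.7, 113.3, 119 and 111.8 CPM in WT and 58.9, 53.7, 61.3 and 58.98 in KO. In counts, every KO library was below every WT library on each diet, by a log2 fold change of -0.63, -0.51 and -0.97. In TPM, Lpcat3 was not lower in KO on SFA, at 99 to 111.9 (mean 105.6) against 86.77 to 113.5 in WT (mean 100.9), or on n6, at 70.83 to 79.1 (mean 74.32) against 64.39 to 76.48 (mean 69.48). On n3 it was lower in KO, at 68.33 to 87.85 TPM against 98.96 to 109.5. On SFA and n3 the CPM of Lpcat3 was above its TPM in each WT library and below it in each KO library. A TPM also depends on the transcript length that the quantification assigned, and the part of this length for Lpcat3 was not tested. The check of the labels by Lpcat3 therefore rests on the counts, and on TPM for n3 alone, and KO stands throughout for the libraries labelled KO. Scaled by library totals alone, the adipocyte markers Plin1 and Adipoq stood at 1670 to 2220 CPM and 1180 to 2190 CPM in all libraries. On that scale Adipoq was lower in KO (1180 to 1710 CPM) than in WT (1850 to 2190 CPM). Whether all KO and WT libraries stand apart for Adipoq with TMM is not shown. Although the title of the series speaks of mature adipocytes, the protocols describe no isolation of these cells, and macrophage, stromal and endothelial markers were present. In such bulk tissue, fewer cells of a type and less RNA per cell cannot be told apart.

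Promoter sequences were searched for short motifs that members might share beside their names. RefSeq promoters (build GRCm38.p6, 250 bases before to 50 bases after the start of the gene) were found for 40 of the 47 members; Ndufa2, Ndufa4l2, Ndufaf6, Ndufb4c, Ndufb9 and Ndufs1 were among those with none. Each was searched on both strands for 5 short motifs of factors known to act on respiratory genes, none of which contains another: TGCGCA (NRF1), AAGATGG (YY1), AAGGTCA (oestrogen-related receptors, ERR), CCGGAAG (ETS factors such as GABP) and GGGCGG (SP factors). The 5 promoters below were chosen for their place in the results: Ndufa10, Ndufa9 and Ndufb10 are subunits whose KO rise had some of the smallest p-values, Ndufaf4 is the assembly factor with the largest rise, and Ndufaf3 is an assembly factor that did not rise. They run 5′ to 3′ on the strand of the gene, in lower case with motif letters in capitals.
Ndufa10, chr1:92473709-92474008, minus strand: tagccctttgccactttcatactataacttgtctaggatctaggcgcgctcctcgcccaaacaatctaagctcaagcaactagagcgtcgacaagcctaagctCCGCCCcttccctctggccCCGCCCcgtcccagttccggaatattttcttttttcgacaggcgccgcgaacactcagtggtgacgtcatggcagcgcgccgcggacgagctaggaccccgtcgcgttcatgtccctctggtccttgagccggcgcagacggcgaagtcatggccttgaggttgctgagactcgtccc
Ndufa9, chr6:126849095-126849394, minus strand: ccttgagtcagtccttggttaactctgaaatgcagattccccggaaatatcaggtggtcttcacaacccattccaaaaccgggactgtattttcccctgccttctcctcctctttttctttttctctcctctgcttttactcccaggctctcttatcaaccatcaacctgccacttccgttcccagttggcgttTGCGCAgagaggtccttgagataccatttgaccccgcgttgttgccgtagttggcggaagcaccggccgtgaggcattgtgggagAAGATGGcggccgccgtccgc
Ndufb10, chr17:24724374-24724673, minus strand: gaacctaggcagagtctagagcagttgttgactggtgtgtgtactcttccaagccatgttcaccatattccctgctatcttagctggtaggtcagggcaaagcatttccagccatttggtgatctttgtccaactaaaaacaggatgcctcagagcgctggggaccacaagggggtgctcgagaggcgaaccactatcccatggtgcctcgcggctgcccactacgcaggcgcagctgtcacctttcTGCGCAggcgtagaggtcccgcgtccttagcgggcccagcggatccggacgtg
Ndufaf4, chr4:24897833-24898132, plus strand: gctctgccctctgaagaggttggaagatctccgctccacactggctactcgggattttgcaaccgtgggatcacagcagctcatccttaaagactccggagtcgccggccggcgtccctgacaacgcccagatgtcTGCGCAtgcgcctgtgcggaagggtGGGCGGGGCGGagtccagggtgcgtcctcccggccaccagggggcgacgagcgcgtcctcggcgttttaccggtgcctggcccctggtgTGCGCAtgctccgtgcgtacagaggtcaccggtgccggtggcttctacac
Ndufaf3, chr9:108567387-108567686, minus strand: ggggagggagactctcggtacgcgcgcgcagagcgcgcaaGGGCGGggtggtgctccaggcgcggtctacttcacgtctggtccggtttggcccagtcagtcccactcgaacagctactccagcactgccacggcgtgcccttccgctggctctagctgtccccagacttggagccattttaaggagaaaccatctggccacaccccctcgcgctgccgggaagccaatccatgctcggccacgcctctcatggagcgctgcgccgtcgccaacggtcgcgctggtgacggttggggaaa
The NRF1 letters stood in the promoters of 10 of 32 subunit genes with an entry (31.2%), against 7.76% of all 32851 promoters of the same length, and in 1 of 7 assembly factor genes, Ndufaf4. The YY1 letters stood in 7 of 32 (21.9%), against 6.34% of all promoters, and in 1 of 7 assembly factor genes. The ERR letters stood in 3 of 32 (9.38%), against 4.72%. For the ETS letters the numbers were 4 of 32 (12.5%), against 8.86%, and for the SP letters 15 of 32 (46.9%), against 35.7%. Of the 7 assembly factor genes, 2 held the ETS letters, 6 the SP letters and 0 the ERR letters. Among protein-coding genes alone, 9.74% of promoters held the NRF1 letters, 6.24% the YY1 letters, 4.08% the ERR letters, 11.6% the ETS letters and 46.2% the SP letters, so the subunit shares for ETS and SP were close to this background. These are matches of letters, not binding sites, and the 5 sequences printed differ: Ndufa10 and Ndufaf3 hold only SP letters, Ndufb10 only NRF1 letters, Ndufa9 NRF1 and YY1 letters, and Ndufaf4 NRF1 and SP letters.

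Per length, subunit transcripts were more abundant than assembly factor transcripts. On the TPM scale (transcript abundance corrected for length), the mean of WT on SFA ran from 45.9 TPM (Ndufb4) to 432.5 TPM (Ndufb8) over the 36 subunits, with a median of 193.7, and from 11.4 TPM (Ndufaf5) to 34.6 TPM (Ndufaf1) over the 8 assembly factors, with a median of 22.7. The ranges of subunits and assembly factors did not overlap in any of the 6 groups. The coefficient of variation (SD over mean of CPM) between the 4 libraries of a group had a median of 5.58% over subunits and 6.87% over assembly factors, with a maximum of 13.15% and 22.13%.

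The first question the design poses is how loss of Lpcat3 changes these transcripts on each diet. Most subunits rose in KO on every diet, by a modest amount, and no subunit fell with TMM scaling. On SFA 23 of 36 subunits rose, against 20% of the 15259 genes tested that rose; with TPM scaling 11 rose and 7 fell. On n6 32 of 36 rose, against 21% of all genes; with TPM scaling 21 rose and 2 fell. On n3 all 36 rose, against 20.1% of all genes; with TPM scaling 24 rose and 0 fell. A rise or fall here is an adjusted p under 0.05 over all genes, in edgeR's quasi-likelihood test or, with TPM, in limma. The shares of all genes given with these counts, here and below, are with TMM scaling. None is given for TPM, with which the median of all genes was -0.125, -0.16 and -0.187 on SFA, n6 and n3. Whether a count with TPM exceeds its background is therefore not shown. The median log2 fold change of the 36 was 0.23 on SFA, 0.35 on n6 and 0.40 on n3, beside medians of all genes of -0.003, 0.001 and -0.028. Of the 36, 23 rose on all 3 diets, 9 on 2 of them and 4 on n3 alone.

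**Figure D1:**
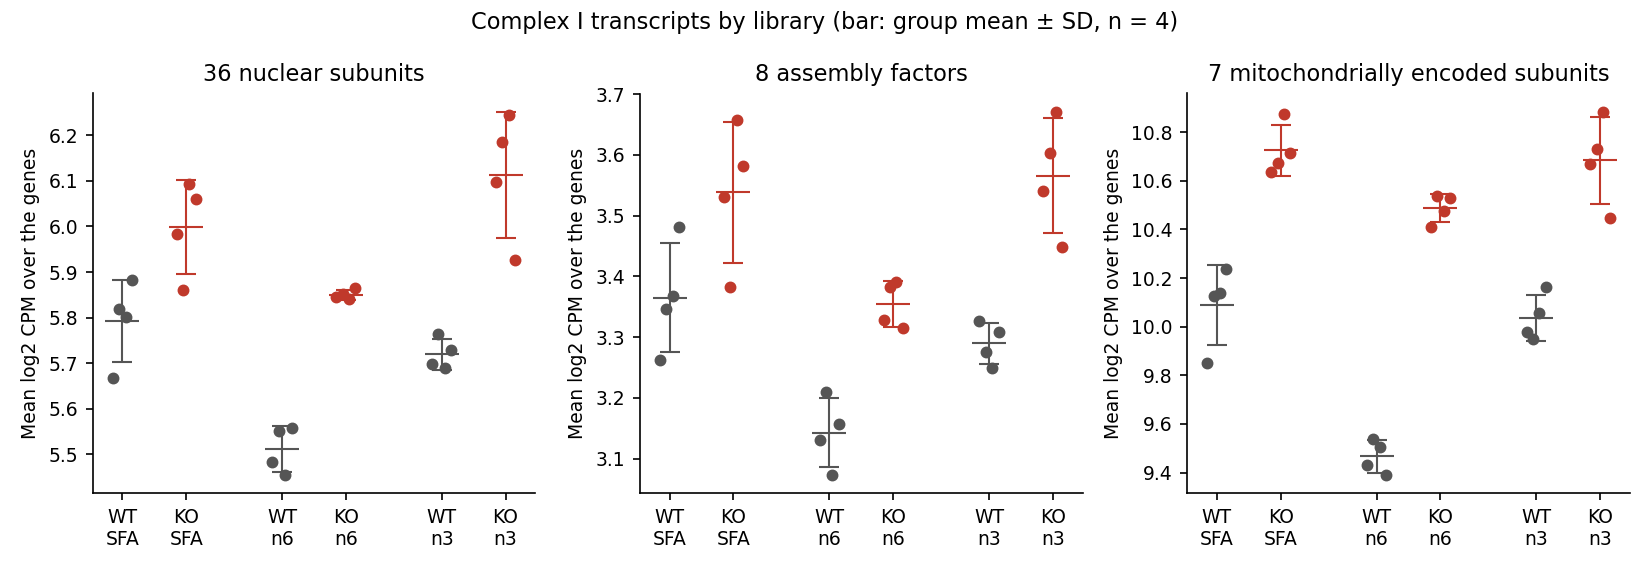
Mean log2 CPM per library over the 36 nuclear subunits, the 8 assembly factors and the 7 mitochondrially encoded subunits (vertical axes), by genotype and diet (horizontal axes; grey WT, red KO; bars show group mean ± SD, n = 4). On n6 the KO libraries (5.84 to 5.87) stand above the WT libraries (5.46 to 5.56) for the nuclear subunits; on SFA the ranges overlap (WT 5.67 to 5.88, KO 5.86 to 6.09).

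Averaged over the 36 subunits, the libraries gave the same picture before any test. On SFA the mean log2 CPM was 5.67 to 5.88 in WT and 5.86 to 6.09 in KO, and only the lowest KO library lay below the highest WT library. On n6 it was 5.46 to 5.56 in WT and 5.84 to 5.87 in KO, and on n3 5.69 to 5.76 in WT and 5.93 to 6.24 in KO, without overlap. WT on n6 was the lowest of the 6 groups, and KO on n3 the highest and the most spread.

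Scaling matters for these differences because it moves all genes. Relative to TMM, scaling by library totals moved the median of all genes in KO minus WT to -0.14 on SFA, -0.14 on n6 and -0.20 on n3, and TPM moved it to -0.13, -0.16 and -0.19. Relative to that shift the subunits stood 0.23, 0.35 and 0.43 above the median of all genes with library totals, as with TMM (0.23, 0.35 and 0.43), and 0.17, 0.30 and 0.35 above it with TPM. With TPM on SFA the subunits that fell were Ndufa13, Ndufa2, Ndufa6, Ndufa7, Ndufb11, Ndufb7 and Ndufv3, all genes that did not pass the test there with TMM. With TPM on n6 they were Ndufa7 and Ndufv3, the latter one that rose with TMM. TMM factors were 0.90 to 1.01 in KO libraries and 1 to 1.11 in WT libraries.

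**Figure D2:**
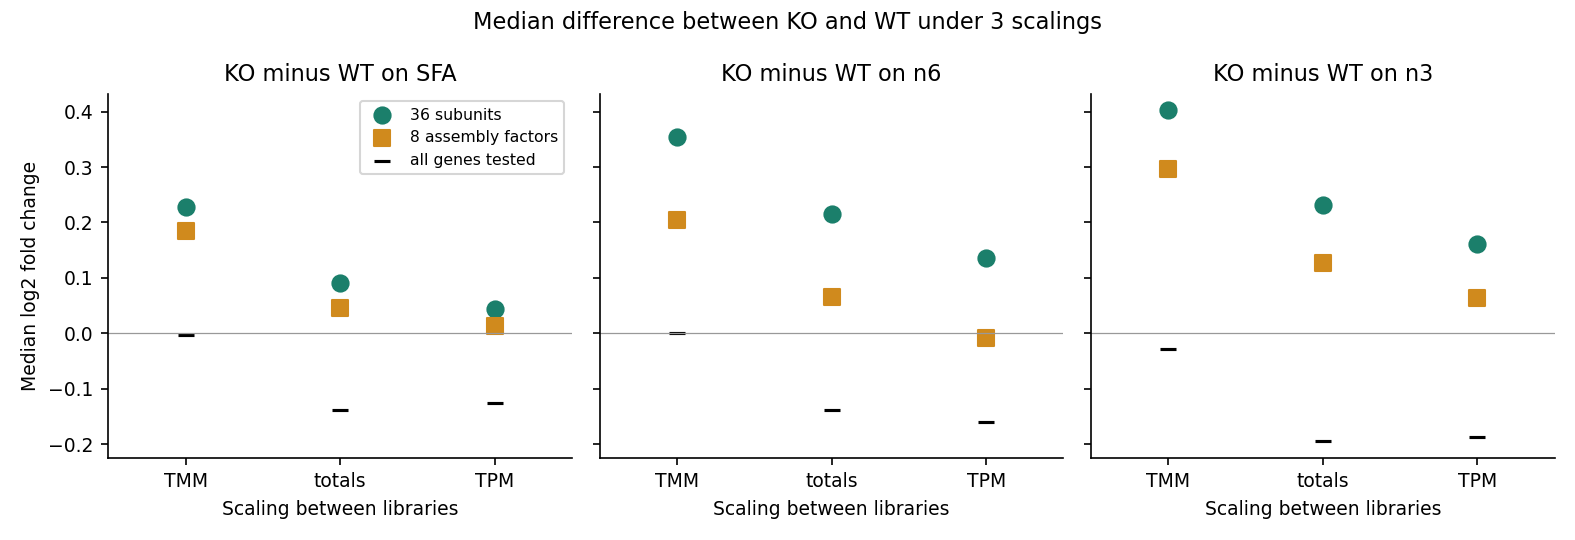
Median log2 fold change, KO minus WT (vertical axis), of the 36 subunits (circles), the 8 assembly factors (squares) and all genes tested (dashes) with TMM scaling, library totals only and TPM (horizontal axis), one panel per diet. The 3 medians fall together from TMM to TPM; the assembly factors on n6 turn from 0.20 to -0.01, while the subunits stay above all genes in each panel.

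The core subunits of the electron input (N) module bind NADH and carry most of the iron-sulphur clusters, and all 3 rose on every diet with TMM scaling. Ndufs1, the largest of them, with several iron-sulphur clusters, lies on chr1:63143596-63176833 (GRCm38, minus strand). On SFA its CPM was 120, 127.8, 126.8 and 129.7 in WT and 167, 156.1, 176.6 and 172.5 in KO. On n6 it was 106.3, 116.9, 108 and 112.3 in WT and 157.9, 165.2, 163.9 and 152.2 in KO, and on n3 130.5, 130.7, 131.3 and 129.1 in WT and 178.3, 188.1, 184.7 and 162.3 in KO. All 12 KO libraries were above all 12 WT libraries. The log2 fold changes were 0.41 ± 0.0451 (SE), 0.53 ± 0.0453 and 0.45 ± 0.0452 for the 3 diets in that order (adjusted p = 1.27e-07, 2.84e-09 and 5.88e-08). Ndufv1, which holds the flavin that accepts electrons from NADH, rose by 0.20, 0.35 and 0.36 (adjusted p = 0.00548, 1.56e-05 and 1.63e-05). Its partner Ndufv2 rose by 0.25, 0.39 and 0.41. On SFA neither of these 2 was called with TPM (Ndufv1 0.04, Ndufv2 0.10) or library totals (0.06 and 0.11). For Ndufv1 on SFA, WT libraries had 111.5, 122.7, 122.5 and 125 CPM and KO libraries 132.6, 125.5, 145.1 and 148.5, without overlap.

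The quinone (Q) module hands electrons to ubiquinone, and of its core subunits Ndufs3, Ndufs7 and Ndufs8 rose on n6 and n3. Ndufs3, which helps to build the module, rose on SFA too, by 0.17, against 0.30 on n6 and 0.35 on n3; the call on SFA was lost with TPM (0.004) and library totals (0.03). Ndufs7 carries the last iron-sulphur cluster before ubiquinone. On SFA it had 36.1, 41.7, 40 and 46.97 CPM in WT and 45.2, 42.1, 51.5 and 48.7 in KO, groups that overlap, and the difference of 0.19 ± 0.076 (SE) did not pass the test (adjusted p = 0.0539). On n3 it had 39.1, 40.5, 35.7 and 38.1 CPM in WT and 52.1, 55.5, 58.9 and 46.2 in KO, without overlap, a rise of 0.47 ± 0.0762 (SE; adjusted p = 4.04e-05). Ndufs8, which holds 2 of the iron-sulphur clusters, had a difference of 0.14 on SFA (adjusted p = 0.0707) and rose by 0.23 on n6 and 0.32 on n3, neither called with TPM (0.02 and 0.08).

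**Figure D3:**
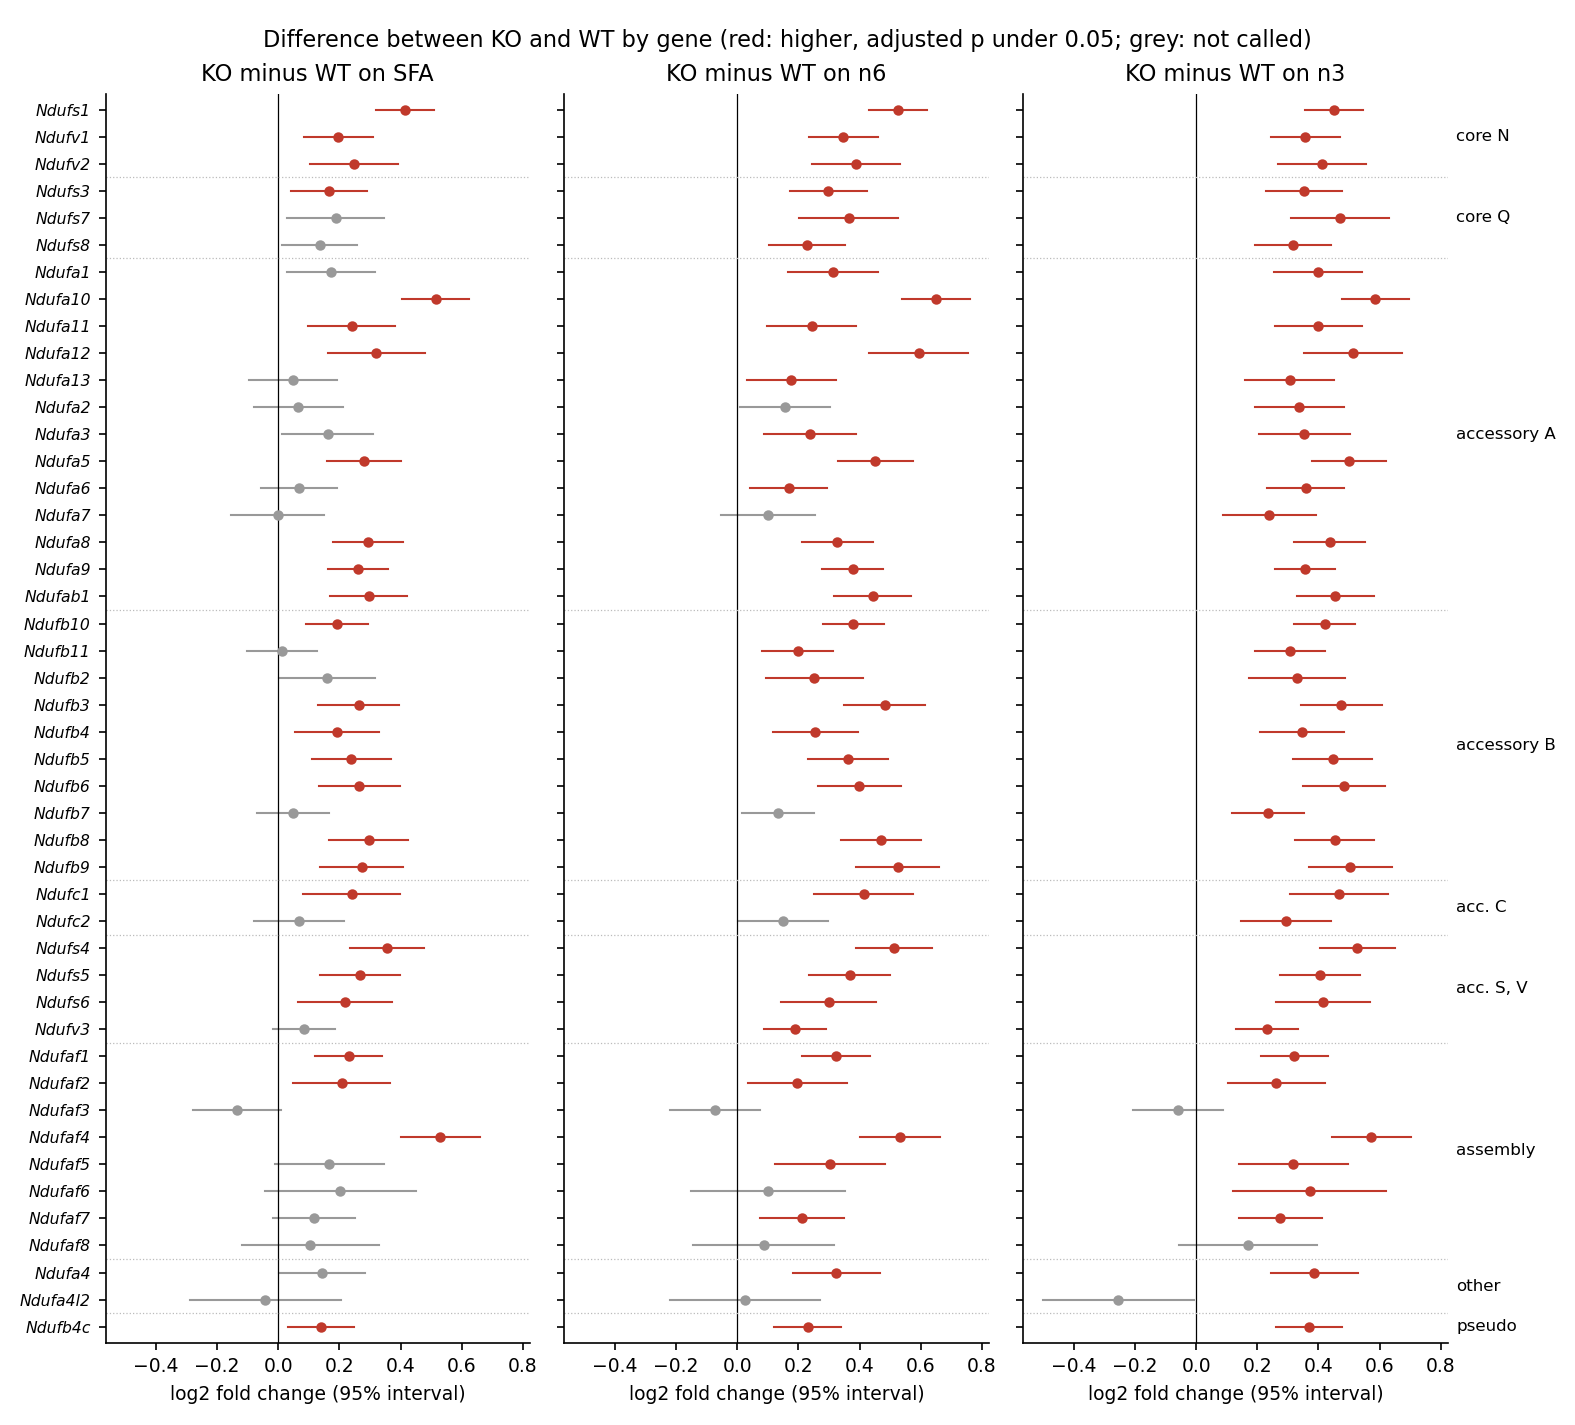
Log2 fold change, KO minus WT with TMM scaling (horizontal axes; points with 95% intervals), for the genes named on the vertical axis (grouped by role) on SFA, n6 and n3. Red points rose and grey points were not called; Ndufa10 is the subunit farthest to the right, and Ndufaf3 is left of 0 in each panel. With TPM scaling 7 subunits fell on SFA and 2 on n6.

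Accessory subunits of the A series sit mainly on the Q module and the membrane arm. Of 13, 7 rose on SFA, 11 on n6 and 13 on n3, against 20%, 21% and 20.1% of all genes tested. With TPM on SFA, Ndufa10, Ndufa12, Ndufa5, Ndufa8 and Ndufa9 rose and Ndufa13, Ndufa2, Ndufa6 and Ndufa7 fell. Ndufa10 (chr1:92439010-92473860, GRCm38, minus strand), an accessory subunit of the membrane arm that resembles a nucleoside kinase, had the largest difference of the 36 subunits on each diet; of the 47 members, Ndufaf4 alone exceeded it, on SFA. On SFA it had 99.4, 107.8, 107 and 115.2 CPM in WT and 145, 141.8, 164.4 and 161.8 in KO. On n6 it had 82.5, 87.9, 86.9 and 90 and 133.4, 139.7, 135.9 and 135.9, and on n3 103.7, 108.8, 103.6 and 104.9 and 154.5, 161, 171.5 and 144.8. Every KO library was above every WT library, whatever the diet. The rises were 0.51 ± 0.0523 (SE), 0.65 ± 0.0525 and 0.58 ± 0.0523, or 1.43-fold, 1.57-fold and 1.5-fold (adjusted p = 4.53e-08, 9.97e-10 and 1.22e-08). Ndufa9, which helps to hold the matrix arm on the membrane arm, rose by 0.26, 0.38 and 0.36. At the other end, Ndufa7 differed by -0.002 ± 0.0724 (SE) on SFA and 0.10 on n6, neither called, and rose by 0.24 on n3 (adjusted p = 0.012; -0.01 with TPM).

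B series subunits belong to the proton-pumping membrane arm. Of 10 tested, 7 rose on SFA, 9 on n6 and 10 on n3, with medians of 0.22, 0.37 and 0.43. The share of all genes that rose was 20%, 21% and 20.1%. With TPM on SFA, Ndufb3, Ndufb8 and Ndufb9 rose and Ndufb11 and Ndufb7 fell. Ndufb9 rose by 0.53 ± 0.065 (SE) on n6 (adjusted p = 7.01e-07), from 71.2, 78.99, 71.5 and 75.7 CPM in WT to 105.7, 108.8, 106 and 107.4 in KO. Ndufb10 rose by 0.42 ± 0.0477 on n3 (adjusted p = 3.46e-07), from 57.5, 60.3, 54.03 and 55.4 CPM to 74.8, 77.2, 81.2 and 71.02. In both the groups did not overlap. On SFA the rise of Ndufb10 (0.19) was not called with TPM (0.02) or library totals (0.06). Ndufb11 shows the spread between diets: its differences were 0.01, 0.20 and 0.31 on SFA, n6 and n3. Its rise on n6 turned to -0.005 with TPM. Both C series subunits, Ndufc1 and Ndufc2, rose on n3 (Ndufc2 not called with TPM or library totals), and Ndufc1 on all 3 diets (not called with library totals on SFA).

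The accessory subunits of the S and V series border the matrix arm. Of 4, 3 rose on SFA and 4 on n6 and n3, against 20%, 21% and 20.1% of all genes. Ndufs4, needed for a stable N module and mutated in Leigh syndrome, lies on chr13:114287795-114388258 (GRCm38, minus strand). Its CPM on SFA was 55.8, 62.1, 61.3 and 61.6 in WT and 74.6, 70.9, 84.96 and 77.6 in KO. On n6 it was 42.95, 48.6, 45.9 and 48.5 and 64.5, 69.5, 67.1 and 64.7, and on n3 54.9, 58.03, 53.4 and 53.04 and 80.9, 82.99, 82.9 and 69.4. No KO library was as low as any WT library. The rises were 0.36 ± 0.0584 (SE), 0.51 ± 0.059 and 0.53 ± 0.0586 (adjusted p = 3.66e-05, 2.36e-07 and 2.63e-07). With TPM, Ndufs4 was not called on SFA. Ndufs5 and Ndufs6 also rose on all 3 diets, with calls lost in TPM on SFA for both and on n6 for Ndufs6.

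Ndufv3, a small accessory subunit of the N module with a long and a short isoform, was the 1 member called higher with counts and lower with TPM in the same comparison, KO minus WT on n6. With counts its differences were 0.08, 0.19 and 0.23, called on n6 and n3. With TPM they were -0.20, -0.11 and -0.06, called lower on SFA and n6 (adjusted p = 0.00243 on n6). A TPM is a count divided by the transcript length that the quantification assigned, so the ratio of count to TPM gives that length. On a log2 scale and less the median of all genes in each library, this ratio for Ndufv3 was -2.60 to -2.53 in WT and -2.47 to -2.42 in KO on SFA. It was -2.58 to -2.50 and -2.47 to -2.42 on n6, and -2.52 to -2.50 and -2.49 to -2.42 on n3. The KO libraries were higher on each diet, by 0.12 ± 0.018 (SE; adjusted p = 0.00157), 0.11 ± 0.018 (adjusted p = 0.00488) and 0.06 ± 0.018 (adjusted p = 0.264) in limma over 13637 genes. It was the 1 member of 47 called on SFA and on n6, against 0.521% and 0.77% of genes called, and 0 members were called on n3, against 0.213%.

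The question whether assembly factors moved like subunits was taken up gene by gene. Of the 8, 3 rose on SFA, 5 on n6 and 6 on n3, with medians of 0.19, 0.20 and 0.30, against 23, 32 and 36 of 36 subunits and 20%, 21% and 20.1% of all genes tested; with TPM 1, 2 and 2 rose and 1 fell on each diet. On n6 the SE was 0.12 for Ndufaf6 and 0.11 for Ndufaf8, against 0.0453 for Ndufs1. The mean log2 CPM of subunits less that of assembly factors was 2.40 to 2.47 in WT and 2.44 to 2.48 in KO on SFA, which overlap. It was 2.34 to 2.40 and 2.45 to 2.55 on n6, which do not, and 2.37 to 2.49 and 2.48 to 2.58 on n3, which overlap. No test was run on this difference of 2 lists.

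Ndufaf4 (chr4:24898083-24905001, GRCm38, plus strand), which joins early to the Q module intermediate, rose most. On SFA its CPM was 17.7, 17.4, 19.7 and 21.4 in WT and 28.3, 27.2, 27.8 and 26.7 in KO. On n6 it was 16.97, 16.5, 16.6 and 16.1 and 23.8, 24.6, 25.9 and 21.5, and on n3 19.4, 18.1, 19.6 and 17.2 and 29.1, 26.98, 28.2 and 26.1. All 12 KO libraries were above all 12 WT libraries. The rises were 0.53 ± 0.0612 (SE), 0.53 ± 0.062 and 0.57 ± 0.0614 (adjusted p = 3e-07, 2.96e-07 and 1.52e-07), as large as those of the leading subunits. Ndufaf1, which works on the membrane arm in the complex with Ecsit and Acad9, rose by 0.23, 0.32 and 0.32. Its KO libraries, 23.3, 23.9, 27.8 and 24.9 CPM on SFA, were above the WT libraries at 20.8, 21.3, 21.6 and 21.6, but the call on SFA was lost with TPM (0.03) and library totals (0.09). Ndufaf2, which acts late on the N module, rose by 0.21, 0.20 and 0.26 (adjusted p = 0.0311, 0.0415 and 0.00825), and was called on no diet with TPM (0.041, 0 and 0.028) or library totals (0.071, 0.058 and 0.092).

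Ndufaf5 and Ndufaf7, methyltransferase-like factors that modify arginines of core subunits, rose on n6 by 0.30 and 0.21 and on n3 by 0.32 and 0.28. Neither was called with TPM or library totals, and with TPM Ndufaf7 on n6 turned to -0.02. Ndufaf6 was called on n3 (0.37, adjusted p = 0.0165) and not on the other diets, and on none with TPM or library totals. Of the 8, Ndufaf4 alone was called higher on all 3 diets under each of the 3 scalings.

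Ndufaf3 and Ndufaf8 were called on no diet. Ndufaf3 (chr9:108565537-108567434, GRCm38, minus strand), the partner of Ndufaf4 in assembly of the Q module, had 12.2, 12.5, 12.9 and 14.03 CPM in WT and 10.8, 11.3, 12.8 and 12.1 in KO on SFA. On n6 it had 10.2, 10.8, 10.9 and 11.2 and 10.1, 10.9, 9.4 and 10.6, and on n3 12.4, 11.3, 10.7 and 12.3 and 11.3, 12.3, 11.3 and 9.997. KO overlapped WT on each diet and differed by -0.136 (95% interval -0.28 to 0.009), -0.072 (-0.219 to 0.075) and -0.059 (-0.205 to 0.088) on SFA, n6 and n3. With TPM it was called lower on each diet (-0.34, -0.29 and -0.35), and with library totals too (-0.27, -0.21 and -0.23). Its exons overlap Impdh2 on the opposite strand, and the sources used here do not say that counting used strand. Ndufaf8, which supports Ndufaf5, had 5.18, 6.68, 6.44 and 7.1 CPM in WT and 6.77, 5.69, 7.45 and 7.37 in KO on SFA, and its differences were 0.10, 0.09 and 0.17.

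**Figure D4:**
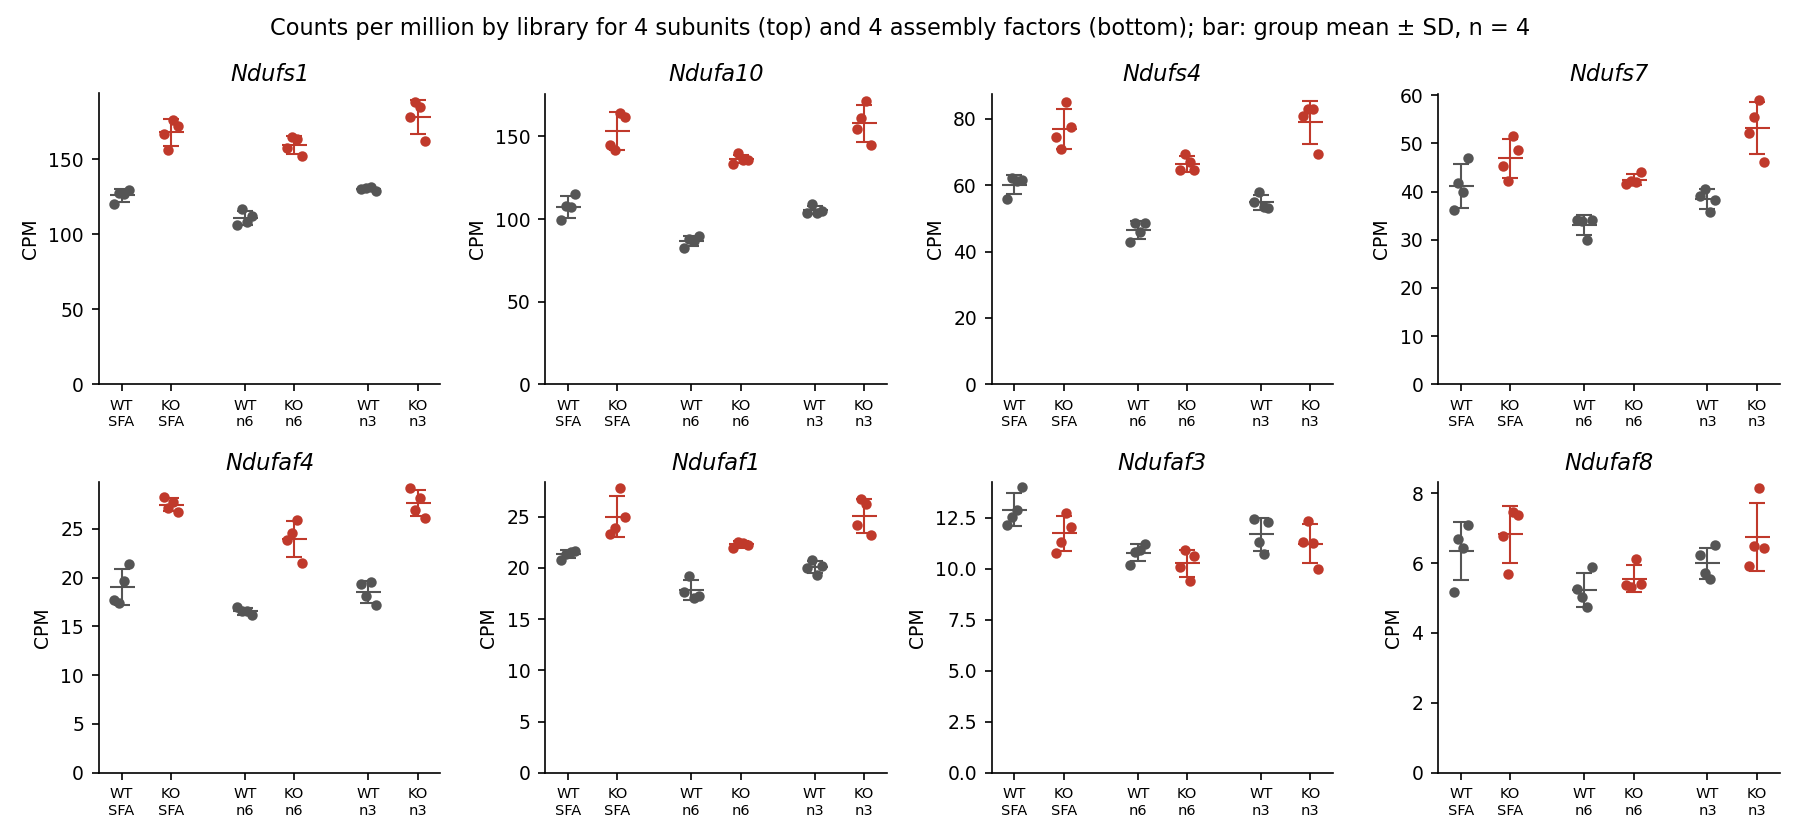
CPM by library (vertical axes, from 0) for 4 subunits and 4 assembly factors by genotype and diet (horizontal axes; grey WT, red KO; bars show mean ± SD, n = 4). For Ndufs1, Ndufa10 and Ndufaf4 every KO library lies above every WT library, while KO and WT overlap on each diet for Ndufaf3.

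Assembly factors that carry other names, from a list of 12 of which 11 were tested, rose in part. On SFA 5 rose and 1 fell, on n6 6 rose and on n3 8 rose. The share of all genes tested that rose was 20%, 21% and 20.1%. Calls for this list, and for the mitochondrially encoded subunits, complexes II to V and regulators below, are given with TMM alone. Timmdc1, needed for the membrane arm, rose by 0.30, 0.35 and 0.46 in the order SFA, n6, n3 (adjusted p = 0.000109, 1.49e-05 and 5.25e-07), Tmem70 by 0.22, 0.37 and 0.48, and Aifm1, which helps to import small mitochondrial proteins, by 0.37, 0.37 and 0.39. Tmem126b, a partner of Ndufaf1, fell by 0.16 on SFA (adjusted p = 0.0142) and differed by -0.12 on n6 and 0.04 on n3, neither called.

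The 7 core subunits encoded in mitochondrial DNA form the proton-pumping membrane arm, and the median of their differences was larger than that of nuclear subunits. On SFA 5 of 7 rose, on n6 7 and on n3 6, against 20%, 21% and 20.1% of all genes tested with TMM. The medians were 0.64, 1.03 and 0.64. mt-Nd2 rose by 0.94 ± 0.069 (SE), 1.37 ± 0.0696 and 0.88 ± 0.0689 in the same order (adjusted p = 2.63e-10, 4.18e-13 and 1.81e-09), and the test that these differ between diets passed (adjusted p = 0.00834). mt-Nd1 rose by 0.79, 1.03 and 0.73. mt-Nd6 differed by 0.20 on SFA (adjusted p = 0.125) and rose on n6 and n3. Mitochondrial genes as a whole took 2.96% to 4.84% of counts in WT and 5.69% to 7% in KO. In poly-A libraries mitochondrial RNA is captured by short tails, so these levels are not comparable with nuclear ones.

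Nuclear subunits of the other respiratory complexes stood close to complex I. Of 38 subunits of complexes II to V, 32, 35 and 37 rose on SFA, n6 and n3, with medians of 0.26, 0.39 and 0.46. Atp5g1, one of 3 genes for the same ring subunit of ATP synthase, fell on SFA and n6 (-0.24 and -0.20). Of 14 regulators of mitochondrial genes, 10, 11 and 9 rose and 0 fell with TMM. Of all genes tested, 20%, 21% and 20.1% rose. With library totals the median of all genes was -0.139, -0.138 and -0.195. Whether the smaller rises in these lists hold with that scaling or with TPM is not shown. Ppargc1a, the coactivator of mitochondrial biogenesis, rose by 0.73, 0.74 and 0.76 (adjusted p = 0.000107, 0.000108 and 9.39e-05), and Esrra, one of the receptors that binds the ERR letters, by 0.46, 0.41 and 0.46. Tfam, which packages mitochondrial DNA, rose by 0.22, 0.28 and 0.27. Nrf1 was called on n6 alone (0.14, adjusted p = 0.0296).

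Markers of other cell types moved with genotype, and their part in the rise was not tested. Of all genes tested, 20%, 21% and 20.1% rose in KO on SFA, n6 and n3. The share that fell is not given, so low counts of falls cannot be set against it. Of 8 macrophage markers, 7 fell in KO on SFA, 6 on n6 and 5 on n3, and the mean log2 CPM of the list was 5.86 to 6.09 in WT and 5.16 to 5.64 in KO on SFA, 5.95 to 6.58 and 5.54 to 6.08 on n6, and 5.95 to 6.22 and 5.41 to 5.96 on n3. Of 7 stromal progenitor markers, 7, 4 and 1 fell and 1 rose on n6, with the list at 8.25 to 8.34 in WT and 7.70 to 8.01 in KO on SFA. Of 7 brown adipocyte markers, 6, 7 and 5 rose, with the list at 1.59 to 2.46 in WT and 2.90 to 3.06 in KO on SFA, 0.649 to 1.52 and 2.69 to 3.11 on n6, and 2.24 to 2.58 and 2.96 to 3.45 on n3. With library totals alone, the defining brown gene Ucp1 was low in all libraries, at 0.0197 to 1.16 CPM. It was among the markers called higher on n6 with TMM. Its CPM there, with library totals alone, was 0.0197 to 0.562 in WT and 0.327 to 0.94 in KO. Of 8 general adipocyte markers, 2 rose and 2 fell on SFA. On n6 4 of them rose and 2 fell, and on n3 3 rose and 2 fell. Of 5 endothelial markers, 4 rose on SFA and 1 on n6, and 2 fell on n3, with the list at 6.906 to 7.326 in WT and 7.163 to 7.619 in KO on SFA. Of 8 B cell markers, 6 rose on n6, with the list at -2.03 to -1.505 in WT and -0.785 to 2.386 in KO. Of 6 gland epithelium markers, 5 rose on n3, with the list at -5.017 to -4.764 in WT and -2.204 to -0.737 in KO. Muscle or B cell markers were high in 4 libraries, 3 of KO. The muscle list was over 4 (mean log2 CPM) in KO_n6 replicate 1 alone. The B cell list was over 1 in WT_SFA replicate 3, KO_SFA replicate 2 and KO_n6 replicate 2. Without these 4 libraries 23, 28 and 36 subunits and 3, 3 and 6 assembly factors rose. KO_SFA replicate 1 and WT_n6 replicate 3, with the muscle list at 2.581 and 2.087, were kept.

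The second question is how the diets compare within a genotype. With TMM scaling, complex I transcripts were lowest on n6 in both genotypes. In WT, all 36 subunits were lower on n6 than on SFA, against 13.1% of all genes that were lower, with a median log2 fold change of -0.27; with TPM, which moved the median of all genes to 0.14, 17 were lower and 0 higher. Of the 8 assembly factors, 5 were lower, with a median of -0.23 (1 with TPM). In KO, 11 of 36 subunits were lower on n6, against 13.8% of all genes, with a median of -0.15, and 3 of 8 assembly factors; with TPM 1 subunit was lower and 1 higher. The subunit count in KO was unstable: it was 2 without KO_SFA replicate 3, 5 without KO_SFA replicate 4, 7 without KO_SFA replicate 1, 5 without KO_n6 replicate 1, 7 without KO_n6 replicate 3, 24 without KO_SFA replicate 2, 18 without KO_n3 replicate 4 and 5 without the 4 libraries high in muscle or B cell markers. In WT, 4 of 8 macrophage, 2 of 5 endothelial and 1 of 8 general adipocyte markers were higher on n6 than on SFA. Lower were 5 of 7 brown adipocyte, 5 of 8 general adipocyte, 2 of 8 B cell and 1 of 7 stromal progenitor markers. In KO, 4 of 8 macrophage and 1 of 7 stromal progenitor markers were higher on n6. There 2 of 7 brown adipocyte and 1 of 8 general adipocyte markers were lower. The share of all genes higher on n6 is not given, and the part of these markers was not tested.

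Ndufa5, an accessory subunit of the matrix arm, is one of the 3 members with the smallest p for n6 against SFA in WT. It had 20.8, 23.02, 22.1 and 23.7 CPM on SFA and 15.98, 18.2, 16.8 and 18.5 on n6, without overlap, a fall of 0.37 on the log2 scale (adjusted p = 0.000135). Ndufs4 fell by 0.37 and Ndufb10 by 0.30 (adjusted p = 0.000124 and 0.000133). In KO, Ndufs4 fell by 0.21, Ndufs5 by 0.25 and Ndufa8 by 0.22 (adjusted p = 0.0128, 0.00653 and 0.00757); with TPM Ndufs4 turned to 0.02. Ndufs5, which has twin CX9C motifs as substrates of the import pathway of the intermembrane space do, had 72.6, 68.2, 80.02 and 77.9 CPM on SFA and 61.6, 62.5, 63.1 and 63.4 on n6 in KO.

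Between n3 and n6 the order was the reverse. In WT 23 of 36 subunits were higher on n3, against 9.82% of all genes, with a median of 0.19 (9 with TPM), and 2 of 8 assembly factors, with a median of 0.17. In KO all 36 were higher on n3, against 15.8% of all genes, with a median of 0.27 (16 with TPM, 21 without the 4 libraries high in muscle or B cell markers), and 3 of 8 assembly factors, with a median of 0.20. The WT count of subunits was 15 without WT_n6 replicate 1, without WT_n6 replicate 3 or without WT_n3 replicate 2. In WT, Ndufa12 had the largest difference, with 30.8, 30.6, 28.1 and 33.6 CPM on n6 and 38.6, 41.4, 42.3 and 42.6 on n3, without overlap (log2 fold change 0.42, adjusted p = 0.000515). Ndufa10 and Ndufs1 were higher by 0.28 and 0.23. In KO, Ndufa6 had 42, 41.8, 39.6 and 41.9 CPM on n6 and 54, 54.3, 56.3 and 47.2 on n3, without overlap, with KO_n3 replicate 4 the lowest on n3 (0.36, adjusted p = 0.00103). Ndufa5 and Ndufa8 were higher by 0.34 and 0.30. In WT, 7 of 7 brown adipocyte and 3 of 8 general adipocyte markers were higher on n3 than on n6 and 1 general adipocyte marker lower, and 3 of 8 macrophage markers were lower. In KO, 3 of 7 brown adipocyte and 2 of 8 general adipocyte markers were higher. Also in KO, 5 of 5 endothelial and 6 of 10 skeletal muscle markers were lower on n3 than on n6. The endothelial list stood at 7.671 to 7.717 on n6 and 6.959 to 7.502 on n3. The share of all genes lower on n3 than on n6 is not given. Counts of markers that were lower therefore cannot be set against it, and the part of all these markers was not tested.

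**Figure D5:**
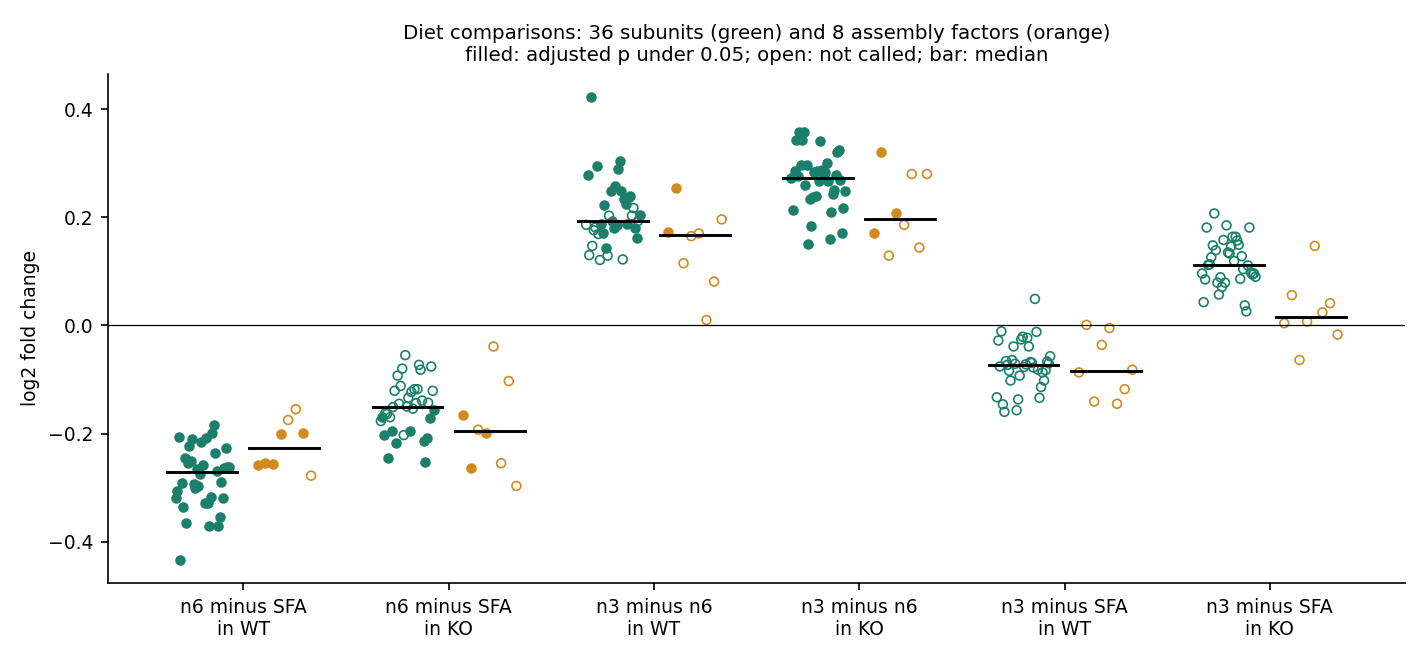
Log2 fold changes between diets with TMM scaling (vertical axis) for the 36 subunits (green) and the 8 assembly factors (orange) in each diet comparison and genotype (horizontal axis); filled points were called, open points were not, and bars are medians. All 36 subunits are lower on n6 than on SFA in WT (17 with TPM) and all 36 higher on n3 than on n6 in KO (16 with TPM).

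Between n3 and SFA no member passed the test in edgeR. In WT 0 of 47 were called, against 0.144% of all genes, with 6 members at an unadjusted p under 0.05 and 1 subunit called by DESeq2. The median of subunits was -0.07 and their range -0.16 to 0.05. In KO 0 of 47 were called, against 1.46% of all genes, with 14 members at an unadjusted p under 0.05. There DESeq2 called 1 subunit, TPM 6 and library totals 5, and 10 were called without KO_n3 replicate 4. The subunits had a median of 0.11 in KO, and 36 of 36 lay above 0 (0.03 to 0.21). For neither genotype is the share of all genes at an unadjusted p under 0.05 given.

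The third question is whether the effect of genotype differed between diets. No member passed this interaction test in edgeR, against 6.44% of all genes that passed. An unadjusted p under 0.05 was found for 11 of 47 members, among them 9 subunits and 0 assembly factors. The share of all genes at that unadjusted threshold is not given. The smallest adjusted p was 0.0504, for Ndufb11, followed by 0.0653 for Ndufb10 and 0.073 for Ndufa6. RLE scaling called 1 subunit, library totals 2, DESeq2 3 and TPM 4. Leaving out 1 library gave between 0 and 10 called subunits: 10 without KO_n3 replicate 4, 3 without WT_SFA replicate 1, 2 without KO_SFA replicate 4 or WT_n3 replicate 2, and 1 without KO_SFA replicate 3 or WT_n6 replicate 4. The larger medians on n3 and n6 than on SFA are therefore given as values, and the diet and genotype comparisons share groups (WT on n6 enters both), so they are not separate evidence of each other.

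The 3 rows that share only the name behaved in different ways. Ndufa4, at 616.7 to 725.1 TPM (group means) more abundant than any nuclear subunit of complex I, is a subunit of complex IV. It rose in KO on n6 (0.32) and n3 (0.39) and differed by 0.14 on SFA (adjusted p = 0.0959). Its paralogue Ndufa4l2, known as a hypoxia-induced gene, was called on no diet with TMM (-0.04, 0.03 and -0.25). On n3 it was called lower with TPM (-0.40) and with library totals (-0.42). The pseudogene Ndufb4c had more counts than its parent Ndufb4: on SFA 35.6, 39.6, 37.6 and 39.4 CPM in WT, against 17.01, 19.6, 17.8 and 20.3 for Ndufb4. Both rose in KO on all 3 diets, Ndufb4c by 0.14, 0.23 and 0.37 and Ndufb4 by 0.19, 0.26 and 0.35. On SFA and n6 neither was called with TPM or library totals (Ndufb4c -0.04 with TPM on SFA). As the 2 sequences are near-identical copies, how reads were shared between them is uncertain. Exons of 17 members, Ndufs1 and Ndufs3 among them, overlap those of another gene on the opposite strand, and 2 further members only those of one on the same strand.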

How the data were processed

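Poly-A RNA of iWAT from 24 libraries, 6 groups of 4, was sequenced by the study. The authors deposited a table of estimated counts per gene and a table of TPM. Per the submitters' processing notes, fastp 0.23.2, Salmon and the build mm10 were used; the strand setting is not given in the sources used here. The deposited estimated counts were rounded and tested with edgeR 4.0.16 (R 4.3.3): filterByExpr (minimum count 10, minimum total 15), TMM scaling, 1 model of 6 groups, robust quasi-likelihood tests and Benjamini-Hochberg adjustment over 15259 genes, with calls at 0.05. The filter kept 99.98% of counts. All 47 members passed it.

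Alternatives were RLE scaling, library totals only, no filter on low counts, DESeq2 1.42.0, limma 3.58.1 on log2(TPM + 1), only the groups compared, a replicate block, and leaving out each library. A fit without 4 libraries high in muscle or B cell markers was added after seeing the data. The fits were checked on simulated data. The transcript length behind TPM was compared with limma on log2(count/TPM).

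The members and lists were chosen with earlier results of these data known. Named members were the nuclear core subunits (1 is not reported here), the called members with the smallest p in each comparison, and those called on no diet in KO minus WT. Ndufa7, Ndufa13, Ndufa2, Ndufaf6, Ndufb3, Ndufb4, Ndufb5, Ndufb7, Ndufb8, Ndufb11, Ndufc1, Ndufc2, Ndufs6, Ndufv3, Tmem126b, Atp5g1 and Nrf1 were named after their values were seen.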

Additional observations from a re-analysis of the deposited data

Results flagged for a closer look

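In 162 groups of 4 libraries checked over the 27 named members, 8 held a library that stood apart from the others by the 95% limit of Dixon's test. Chance flags about 1 in 20 groups, and 8 of 162 is 4.94%. Ndufs4, the accessory subunit of the matrix arm, had 55.78 CPM in WT_SFA replicate 1 (others 61.32 to 62.08) and 69.44 CPM in KO_n3 replicate 4 (others 80.88 to 82.99), both low. Ndufa5 had 24.99 CPM in KO_SFA replicate 2, below the others at 27.78 to 28.13. Ndufa6 had 39.56 CPM in KO_n6 replicate 3, below 41.84 to 42.0. Ndufs7 had 29.85 CPM in WT_n6 replicate 3, below 33.82 to 34.17. Ndufs8 had 47.56 CPM in KO_n6 replicate 2, above 43.41 to 43.96. The assembly factor Ndufaf8 had 6.117 CPM in KO_n6 replicate 3, above 5.31 to 5.413, and the pseudogene Ndufb4c 37.75 CPM in WT_n3 replicate 2, above 33.84 to 34.27.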

How the results depend on the processing

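With TPM, the called subunits numbered 18 (SFA), 23 (n6), 17 (n6 minus SFA in WT), 9 (n3 minus n6 in WT), 2 (n6 minus SFA in KO), 6 (n3 minus SFA in KO), 16 (n3 minus n6 in KO) and 4 (interaction), and the assembly factors 2, 3 and 3 (KO minus WT on SFA, n6 and n3), 1, 0, 0 and 1 (n6 minus SFA and n3 minus n6 in WT, then in KO). With library totals the subunits numbered 15 (SFA), 1 (n6 minus SFA in KO), 5 (n3 minus SFA in KO) and 2 (interaction), and the assembly factors 2, 3 and 3, then 1, 1, 0 and 1. DESeq2 called 1 subunit for n3 minus SFA in each genotype, 3 in the interaction, and 5 assembly factors for n6 minus SFA in KO. RLE called 1 subunit in the interaction, and a fit of only the groups compared 1 assembly factor for n3 minus n6 in KO. Without the 4 libraries high in muscle or B cell markers there were 5 (n6 minus SFA) and 21 (n3 minus n6) subunits in KO, and 3 (KO minus WT on n6), 0 and 0 (n6 minus SFA and n3 minus n6 in KO) assembly factors. The cause was not tested. Among values called with TMM, and medians of lists with a call, signs reversed with TPM and with no other alternative run: the assembly factor median on n6 (-0.008); in KO minus WT, Ndufaf7 (-0.016), Ndufa13 (-0.028), Ndufa6 (-0.045), Ndufb11 (-0.005) and Ndufv3 (-0.108) on n6, Ndufa7 (-0.011) and Ndufv3 (-0.057) on n3, Ndufb5 (-0.029) and Ndufb4c (-0.037) on SFA; and between diets, Ndufaf7 (0.035) and Ndufs1 (0.015) for n6 minus SFA in WT, Ndufs4 (0.019) for n6 minus SFA in KO and Ndufv1 (-0.01) for n3 minus n6 in KO. Of values not called with TMM, library totals also turned Ndufb11 (-0.126, adjusted p = 0.017), Ndufa13 (-0.089), Ndufb7 (-0.088) and Ndufaf8 (-0.033) on SFA and Ndufa7 (-0.038) and Ndufaf6 (-0.037) on n6, among others. The assembly factor median for n3 minus SFA in KO, 0.016, was -0.002 with no filter and -0.011 without the 4 libraries. Leaving out each library gave 19 to 28, 30 to 35 and 35 to 36 subunits in KO minus WT on SFA, n6 and n3, and 2 to 4, 4 to 5 and 5 to 6 assembly factors. For n6 minus SFA it gave 31 to 36 subunits and 2 to 6 assembly factors in WT, and 2 to 24 and 1 to 6 in KO. For n3 minus n6 it gave 15 to 32 and 1 to 3 in WT, and 28 to 36 and 1 to 5 in KO. For n3 minus SFA it gave 0 to 0 and 0 to 0 in WT, and 0 to 10 and 0 to 0 in KO, and for the interaction 0 to 10 and 0 to 0. Of the assembly factor counts, n6 minus SFA was 2 in WT without WT_SFA replicate 4, and in KO 6 without KO_SFA replicate 2 and 1 without KO_SFA replicate 3, KO_n6 replicate 1 or KO_n6 replicate 4. For n3 minus n6 it was 1 in WT without WT_n6 replicate 1, 3 or 4 or WT_n3 replicate 2, and in KO 5 without KO_SFA replicate 2 and 1 without KO_n3 replicate 3. The labels share replicate numbers but say nothing of a shared litter or day, and in no comparison did all 4 same-numbered pairs correlate over 0.1. With a replicate block, 23, 31 and 36 subunits and 3, 4 and 6 assembly factors were called in KO minus WT on SFA, n6 and n3, and no count moved by over 1.5 times.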
